A study of Mus musculus with 12 samples.

Results

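XEN cells are stem cell lines of the mouse extraembryonic endoderm. The line used here carries an Afp::GFP transgene, which makes green fluorescent protein (GFP) where the alpha-fetoprotein gene Afp is active. After treatment with the growth factor BMP4 the cells were separated by flow sorting into a GFP positive and a GFP negative fraction, and the question of the comparison is which genes differ between them. The fractions give 6 of the 12 arrays of the study, 3 GFP positive and 3 GFP negative, taken by their labels and not by any measured value. The other 6 arrays hold unsorted cells of the same line, 3 with BMP4 and 3 untreated. All cells carried the transgene and grew in N2B27 medium, and both sorted fractions had received BMP4. Not given in the sources used here were the sorting gates, the purity of the fractions, the dose and time of BMP4, and whether the line is 1 clone. Nothing states that replicates came from separate cultures, so a p-value here covers only the spread between arrays.

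The primitive endoderm of the early mouse embryo gives rise to the visceral endoderm, an epithelium around the embryo, and to the parietal endoderm, single cells that lay down a thick basement membrane. The visceral endoderm feeds the embryo before the placenta works: its apical surface takes up proteins through the receptors megalin and cubilin, and it secretes serum proteins that the liver makes later. Afp, a serum glycoprotein of the yolk sac and fetal liver, is a classical marker of this layer. BMP4 belongs to the TGF-beta family and acts through SMAD proteins in the nucleus.

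Levels are background-corrected, normalized log2 signals of 1 probe per gene, and differences are GFP positive minus GFP negative on that scale, with the standard error (SE) from a limma fit to all 12 arrays. A gene was called higher or lower at a Benjamini-Hochberg adjusted p under 0.05 over the 10597 genes tested. Median signal ranged between 22.6 and 31.4 on GFP positive arrays and between 27.7 and 32.4 on GFP negative arrays, and 13105 to 13745 of 45281 probes were detected on each sorted array. Arrays within a fraction correlated at r of 0.9959 to 0.9968 across genes, and arrays of opposite fractions at 0.992 to 0.9938. Genes are not independent replicates in these correlations. In a principal component analysis of the 6 sorted arrays the leading component held 48.5% of the variance and separated the fractions. The early endoderm regulators Gata6, Sox17 and Sox7 and the receptor Pdgfra were detected on all 6 arrays.

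Afp itself had the largest rise of any gene tested. Its log2 signal was 9.77, 9.50 and 9.46 on the GFP positive arrays, against 7.20, 7.38 and 7.46 on the GFP negative arrays. The fractions did not overlap, and the difference of 2.23 ± 0.17 (SE) was 4.69-fold (limma adjusted p = 6.3e-06). Afp was detected on all 3 arrays of the GFP negative cells too. The sort labels and the RNA of Afp thus went the same way. In bulk RNA, fewer cells with Afp and less Afp RNA per cell cannot be told apart.

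The promoters of the leading genes Afp, Vtn and Spp2 are shown because their RNAs differed most in the same direction. Each runs 5′ to 3′ on the plus strand over 300 bases around the annotated start, of which the last 50 follow it, in the RefSeq annotation of build GRCm38.p6. They lie at chr5:90490464-90490763, chr11:78498870-78499169 and chr1:88406760-88407059. Capitals mark matches, on either strand, to an HNF1 motif, GTTAAT, a FOXA motif, TGTTTAC with its variant TGTTTGC, an HNF4 motif, CAAAGTCCA, and a GATA motif, AGATAA with its variant TGATAA. These are short forms of the motifs of factor families active in visceral endoderm and liver, and no match overlapped another.
Afp: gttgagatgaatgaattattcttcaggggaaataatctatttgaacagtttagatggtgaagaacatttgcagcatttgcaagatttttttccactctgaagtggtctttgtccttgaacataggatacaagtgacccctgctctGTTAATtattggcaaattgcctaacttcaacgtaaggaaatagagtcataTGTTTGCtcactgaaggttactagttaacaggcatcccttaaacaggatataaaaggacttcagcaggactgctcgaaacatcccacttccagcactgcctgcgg
Vtn: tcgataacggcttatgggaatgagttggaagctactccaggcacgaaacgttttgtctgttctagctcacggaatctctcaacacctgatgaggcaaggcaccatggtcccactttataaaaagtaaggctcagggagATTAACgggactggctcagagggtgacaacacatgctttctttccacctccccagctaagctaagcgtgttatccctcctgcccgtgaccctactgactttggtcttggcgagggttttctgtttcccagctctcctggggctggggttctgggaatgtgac
Spp2: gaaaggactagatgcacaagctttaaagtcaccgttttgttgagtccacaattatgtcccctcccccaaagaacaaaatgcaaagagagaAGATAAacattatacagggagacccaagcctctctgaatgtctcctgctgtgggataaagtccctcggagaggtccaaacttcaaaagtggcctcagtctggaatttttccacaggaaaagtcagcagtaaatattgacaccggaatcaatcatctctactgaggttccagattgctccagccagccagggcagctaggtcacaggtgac

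The Afp promoter held 1 HNF1 match, starting at position -105 from the start site, and 1 FOXA match at -55. The Vtn promoter held an HNF1 match on the minus strand at -112, seen here as its reverse complement, and the Spp2 promoter a GATA match at -160. Such letters are common. Of 32851 RefSeq promoters of this length, 7.1% held the HNF1 letters, 8.48% a FOXA form, 0.47% the HNF4 letters and 18.61% a GATA form. A promoter was matched for 381 of the 571 called genes. The next shares are per gene and count a gene if any of its promoters matched. A FOXA form was found for 26 of 213 genes higher in GFP positive cells (12.21%) and 16 of 168 lower there (9.52%), against 7.14% of the genes tested. For the HNF1 letters the shares were 7.04% of higher genes, 6.55% of lower genes and 5.08% of genes tested. The HNF4 letters were in none of the promoters of called genes. For GATA the shares were 12.68% of higher genes, 9.52% of lower genes and 11.96% of genes tested. A match is a string of letters and was not tested as a binding site.

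Between the fractions 571 genes were called, 5.39% of those tested. Of these, 325 were higher in GFP positive cells (3.07%) and 246 were lower (2.32%). Most differences were small: the median was 0.47 among the higher genes and -0.46 among the lower ones, and the median over all genes tested was -0.01. A difference of at least 2-fold was reached by 40 genes (0.377%), 27 higher (0.255%) and 13 lower (0.123%). The arrays of the fractions did not overlap for any of the 325 higher genes and for 244 of the 246 lower ones; over all genes tested this held for 27.4%. The count of called genes was 289 without GFP positive replicate 1, 356 without GFP positive replicate 2, 306 without GFP negative replicate 2 and 353 without GFP negative replicate 3. It was 233 after scale in place of quantile normalization and 918 with array weights. No gene was called in the opposite direction under any of these settings. With each probe tested on its own, 683 of 15448 probes were called (4.42%).

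**Figure D1:**
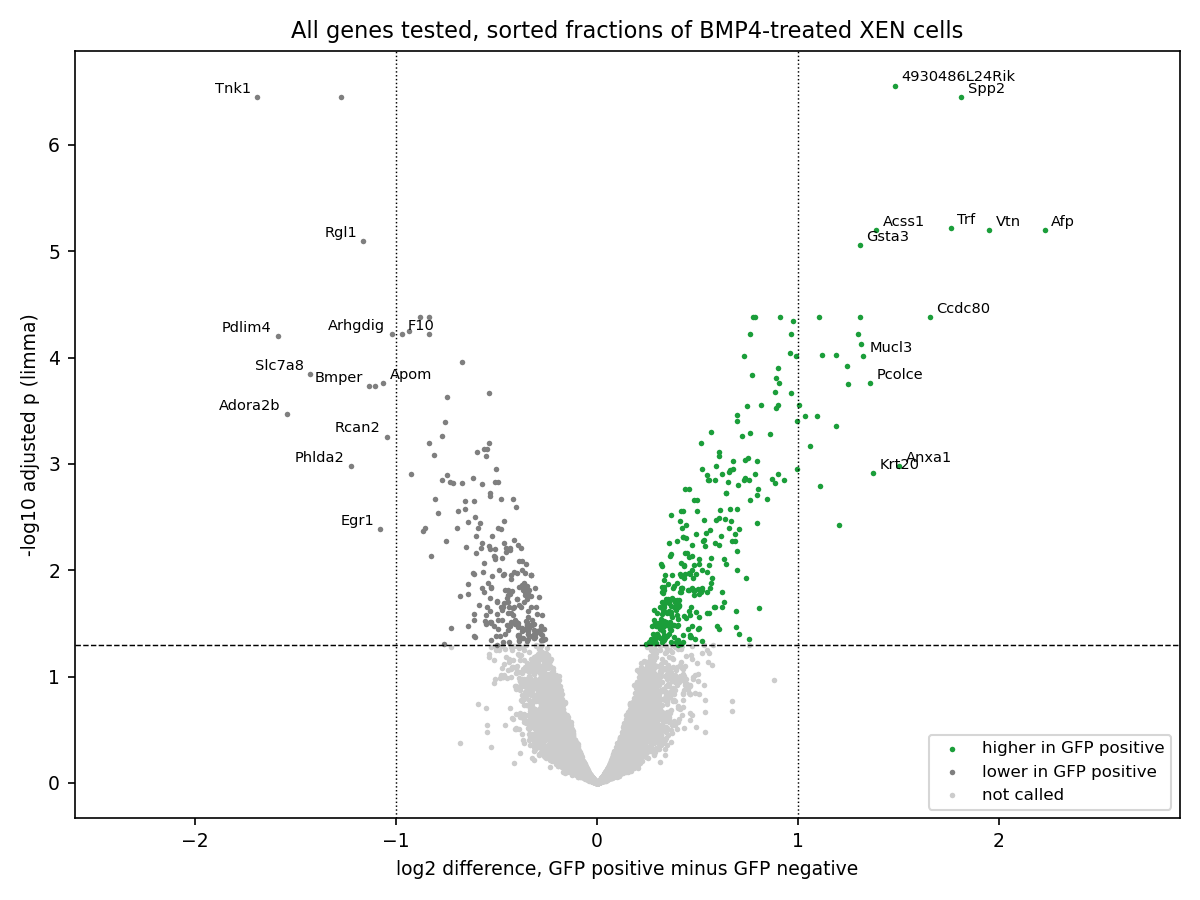
All 10597 genes tested, with the log2 difference (GFP positive minus GFP negative) on the x axis and -log10 of the adjusted p from limma on the y axis; the dashed line marks an adjusted p of 0.05 and the dotted lines a 2-fold difference. Named genes are the 12 largest rises and falls chosen by rule, with Afp at 2.23 farthest to the right and Tnk1 at -1.69 farthest to the left.

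After Afp the largest differences were those of Vtn, Spp2 and Trf, each of which encodes a protein that the liver secretes into the blood. Vtn, the plasma adhesion protein vitronectin, had a log2 signal of 6.98, 6.78 and 6.75 on GFP positive arrays. On GFP negative arrays it averaged 4.88 ± 0.11 (SD, n = 3) and was detected on none, so that Vtn was at least 2.15-fold higher in GFP positive cells (adjusted p = 6.3e-06, limma). For such genes the GFP negative values were raised to the lowest level of a detected probe before the fold was taken. Spp2, a secreted phosphoprotein of liver, read 9.43, 9.22 and 9.20 in GFP positive cells, against 7.60, 7.38 and 7.44 in GFP negative cells. All 6 arrays detected Spp2, and its difference was 1.81 ± 0.10 (SE), or 3.51-fold (adjusted p = 3.57e-07). Trf, the iron carrier transferrin, read 7.82, 7.76 and 7.73 in GFP positive cells, against 5.67, 6.16 and 6.19 in GFP negative cells, where 2 of 3 arrays detected it. The difference of Trf was 1.76 ± 0.13.

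Genes of serum proteins and clotting factors were called higher more often than lower. Of 34 listed genes 16 were measured, with a median difference of 0.42. Of these 8 were called higher (50%, against 3.07% of all genes) and 2 lower (12.5%, against 2.32%). The 8 include Afp, whose reporter set the sort, so its rise is no independent result. Hemopexin, Hpx, which binds free heme, read 8.11, 7.83 and 7.89 in GFP positive cells and 6.77, 6.87 and 6.84 in GFP negative cells, a 2.17-fold difference with no overlap. Smaller rises were those of the kininogen gene Kng1 (0.80 ± 0.14), the anticoagulant protease gene Proc (0.64 ± 0.10) and Ambp, the precursor of bikunin (0.42 ± 0.08). The fibrinogen chain gene Fga was also called, but it was detected on none of the sorted arrays and has no fold. Clotting factor X, F10, went the other way: it read 6.31, 6.28 and 6.63 in GFP positive cells, against 7.24, 7.40 and 7.49 in GFP negative cells, a difference of -0.97 ± 0.10. Rbp4, the retinol carrier, was called lower, but it was detected on none of the GFP positive and 1 of the GFP negative arrays. Transthyretin, Ttr, an abundant product of visceral endoderm, averaged 13.23 ± 0.07 in GFP positive and 13.10 ± 0.09 in GFP negative cells (SD, n = 3 each), and its difference of 0.13 ± 0.08 did not pass (adjusted p = 0.428, limma).

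**Figure D2:**
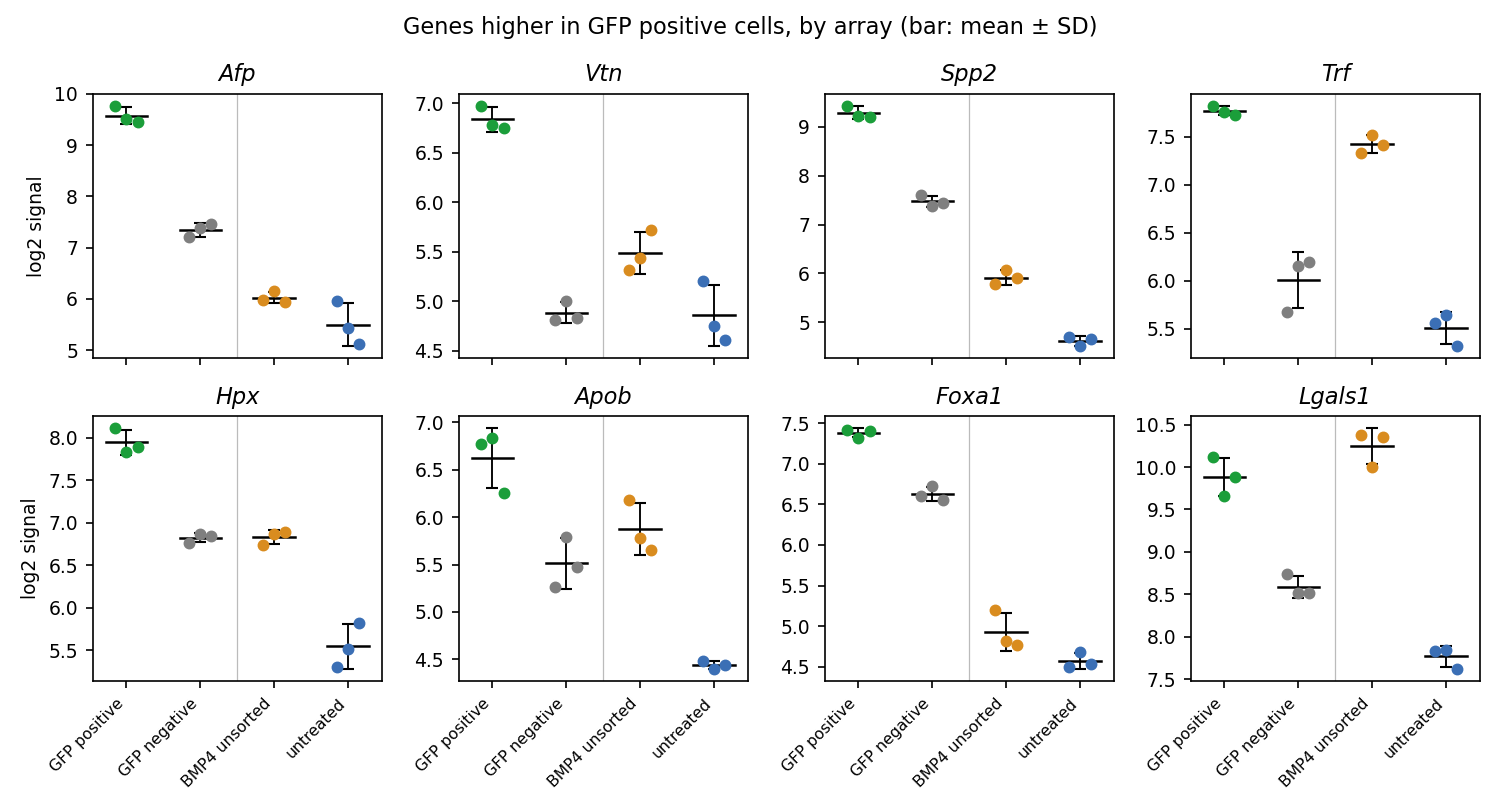
Log2 signal of 8 genes called higher in GFP positive cells, with 1 point per array in each of the 4 groups of 3 arrays; bars are the mean and the SD, and each panel has its own y axis, which does not start at 0. In every panel the 3 GFP positive arrays lie above the 3 GFP negative arrays, while the mean of the unsorted BMP4 arrays lies above, between or below the fraction means depending on the gene.

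Genes of lipid transport split. Of 23 listed 10 were measured, 4 higher (40%, against 3.07% of all genes) and 3 lower (30%, against 2.32%), with a median of 0.18. Apob, the structural protein of large lipoproteins, read 6.77, 6.84 and 6.26 in GFP positive cells, against 5.26, 5.79 and 5.48 in GFP negative cells, of which 1 array detected it. Its difference was 1.11 ± 0.17. The apolipoproteins of high-density particles also rose, Apoa1 by 0.61 ± 0.11 and Apoa2 by 0.52 ± 0.10, and so did the lipoprotein receptor gene Vldlr by 0.76 ± 0.07. Apom, an apolipoprotein that carries a signalling lipid, read 9.61, 9.49 and 9.74 in GFP positive cells, against 10.81, 10.54 and 10.69 in GFP negative cells. It was lower by 2.09-fold, and both of its probes were called. Mttp, which loads lipid onto ApoB, was lower by 1.53-fold and Apoe by 1.27-fold. Thus Apob and Mttp, whose proteins act together in lipoprotein assembly, were called in opposite directions. The calls of Apoe, Apoa2 and Ambp were lost under some alternatives, with adjusted p up to 0.216 for Apoe.

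The protein uptake receptors megalin and cubilin were lower in GFP positive cells. Megalin, Lrp2, the large endocytic receptor of the apical surface, read 9.53, 9.65 and 9.63 in GFP positive cells, against 10.22, 10.44 and 10.47 in GFP negative cells. Its difference was -0.77 ± 0.12 (SE), 1.71-fold lower (adjusted p = 0.00141, limma). Cubilin, Cubn, the co-receptor that binds cargo such as intrinsic factor, read 7.92, 7.77 and 7.91 in GFP positive cells, against 8.65, 8.67 and 8.58 in GFP negative cells. That is again 1.71-fold lower, with no overlap. Amn, amnionless, which brings cubilin to the membrane, read 11.71, 11.73 and 11.86 in GFP positive cells, against 12.18, 12.30 and 12.29 in GFP negative cells. Its difference of -0.49 ± 0.10 lost the call without GFP positive replicate 1 (adjusted p = 0.0507). The adaptor gene Dab2, which links megalin to clathrin, was lower by 1.21-fold, a call lost under 9 of 16 alternatives. The brush border peptidase gene Dpp4 was lower by 1.68-fold, and the phosphate transporter gene Slc34a2 by at least 1.23-fold.

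These 6 were the called members among 20 measured brush border and endocytic genes, and no member was called higher (30% lower, against 2.32% of all genes). The list's median was -0.10. General trafficking members did not pass: Ap2b1, a subunit of the clathrin adaptor, differed by 0.50 ± 0.17 (adjusted p = 0.110), the most positive value of the list. Cltc, the clathrin heavy chain, differed by -0.06, Rab5a by 0.04, Rab7 by -0.02 and Rab11a by -0.04. Without GFP positive replicate 1, 3 of the 20 were called lower. Of 20 measured lysosomal genes none was called at its brightest probe. At an unadjusted p under 0.05 there were 4 (20.0%, against 18.6% of all genes). Dimmer probes of Lamp2 were called higher, at 0.33 and 0.42, and a dimmer probe of Ctsz lower, at -0.32.

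**Figure D3:**
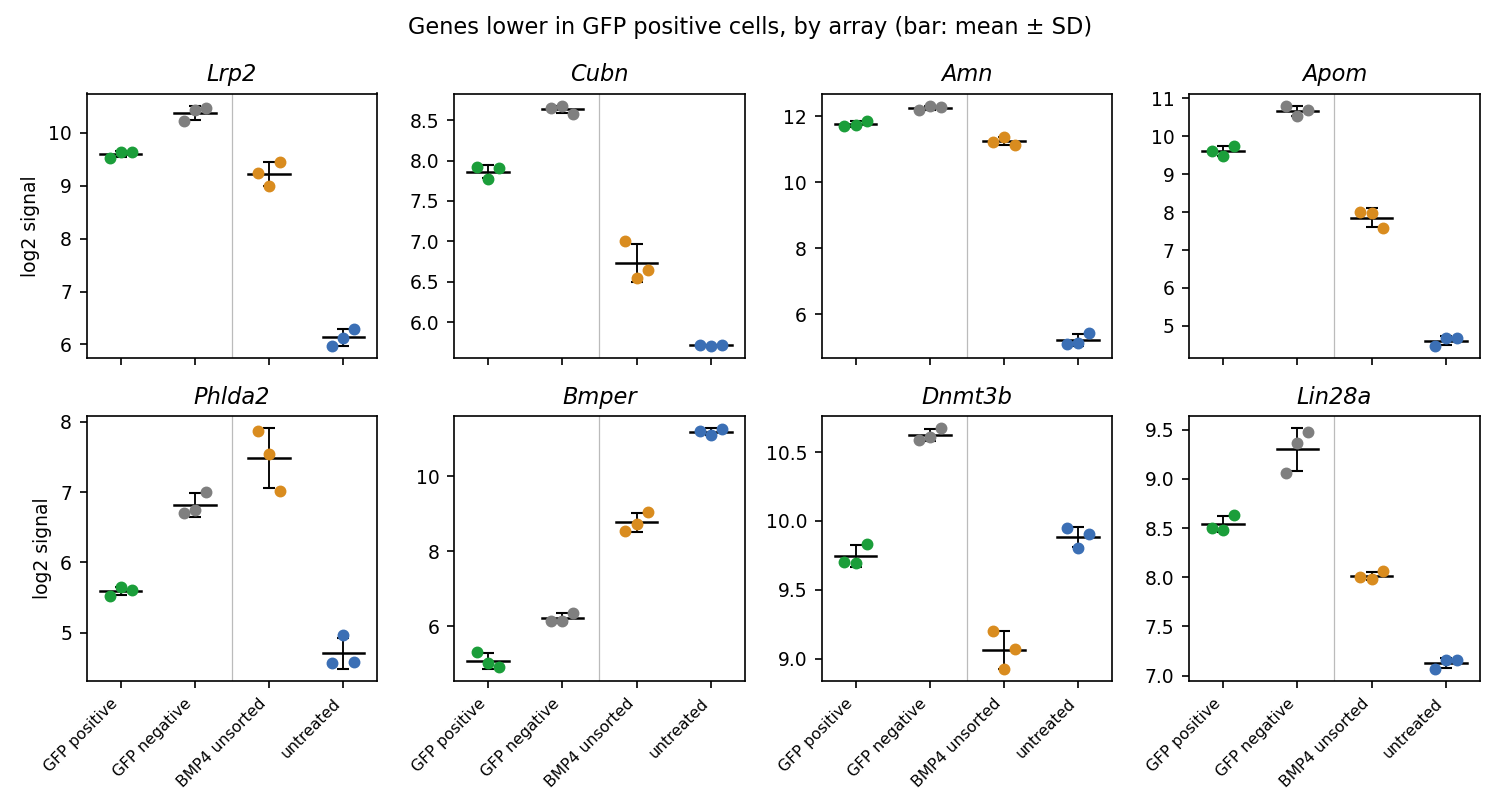
Log2 signal of 8 genes called lower in GFP positive cells, with 1 point per array, bars for the mean and the SD of 3 arrays, and a separate y axis per panel that does not start at 0. The GFP positive arrays lie below the GFP negative arrays in every panel; for Lrp2, Cubn, Amn and Apom both fractions lie far above the untreated cells.

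Markers of the visceral endoderm therefore did not move as 1 group. Of 36 listed 28 were measured, 8 higher and 10 lower (28.6% and 35.7%, against 3.07% and 2.32% of all genes), with a median of -0.03. The 8 include the sort marker Afp and also Fga, which no sorted array detected. The higher members were Afp, Trf, Apob, Foxa1, Apoa1, Fga, the selenium carrier gene Selenop (0.64 ± 0.10) and Cyp26a1, whose enzyme degrades retinoic acid. Cyp26a1 was detected on 2 GFP positive arrays and no GFP negative array, and was at least 1.24-fold higher. The lower members were Rbp4, Apom, Lrp2, Cubn, Dpp4, Amn, Dab2, Apoe, the trypsin inhibitor gene Spink1 and the cholesterol-esterifying enzyme gene Soat2. Spink1 read 12.24, 12.11 and 12.24 in GFP positive cells, against 12.84, 12.79 and 12.74 in GFP negative cells. The probes of Soat2 differed: the brighter was called lower, at -0.43, and the other read 0.17. Ihh, the hedgehog ligand of visceral endoderm, differed by 0.17 ± 0.09 (adjusted p = 0.378).

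Other liver and yolk sac genes outside these lists were picked out after their values were seen. Higher in GFP positive cells were Fcgrt, the neonatal Fc receptor (0.99 ± 0.10), Asgr1, a receptor for glycoproteins on hepatocytes (0.91 ± 0.10), Slc40a1, the iron exporter ferroportin (0.85 ± 0.13), and Serpina10, an inhibitor of clotting proteases (0.74 ± 0.10). The IGF binding protein genes Igfbp2, Igfbp5 and Igfbp1 rose by 0.90, 0.80 and 0.77. Igfbp2 read 10.17, 10.29 and 9.98 in GFP positive cells and 9.31, 9.30 and 9.13 in GFP negative cells. Igfbp1 was detected on all 3 GFP positive arrays and on 1 GFP negative array.

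Of 24 listed transcription factors of the visceral endoderm, 14 were measured, 2 higher (14.3%, against 3.07% of all genes) and 1 lower (7.14%, against 2.32%), with a median of -0.02. The pioneer factor gene Foxa1 read 7.42, 7.31 and 7.41 in GFP positive cells, against 6.60, 6.72 and 6.56 in GFP negative cells, a 1.69-fold rise (adjusted p = 0.00089, limma). Its relative Foxa2 read 8.80, 9.01 and 8.92 in GFP positive cells and 9.00, 8.91 and 8.88 in GFP negative cells, with a difference of -0.02 ± 0.11. Cebpb, a regulator of liver and stress genes, was called higher at 0.34 ± 0.08. Hhex, a homeobox gene of anterior visceral endoderm and liver bud, read 8.29, 8.42 and 8.22 in GFP positive cells, against 8.75, 8.88 and 8.79 in GFP negative cells. Hhex was lower by 1.41-fold, whereas Fzd5, a WNT receptor gene of the same anterior list, was higher by 1.60-fold. Hnf4a, a central regulator of serum protein genes, read 9.81, 9.85 and 9.80 in GFP positive cells, against 10.07, 10.14 and 10.04 in GFP negative cells. The arrays of Hnf4a did not overlap, but its difference of -0.27 ± 0.12 did not pass (adjusted p = 0.253) and passed when only the sorted arrays entered the fit (adjusted p = 0.0449).

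Among genes of the primitive endoderm, of which 12 were measured, none was called higher and 2 were called lower (16.7%, against 2.32% of all genes), and the median was -0.20. Sox7, a SOX factor of XEN cells, read 9.88, 10.15 and 10.01 in GFP positive cells, against 10.52, 10.50 and 10.40 in GFP negative cells (1.38-fold lower). The other called member was Dab2, and 1 member was called lower without GFP positive replicate 1 or 3 or any 1 of the GFP negative arrays. Gata6 differed by -0.05 ± 0.10, Gata4 by -0.33 ± 0.13 (adjusted p = 0.173), Sox17 by -0.14 ± 0.08 and Pdgfra by -0.00 ± 0.08.

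Markers of the parietal endoderm showed few calls. Of 21 measured 1 was higher and 1 lower (4.76% each, against 3.07% and 2.32% of all genes), with a median of 0.04. Sparc, a secreted matrix glycoprotein, averaged 13.83 ± 0.10 in GFP positive and 13.84 ± 0.14 in GFP negative cells (SD, n = 3 each). The dimmest probe of Sparc was called lower, at -0.44, and its others ranged between -0.20 and 0.11. Lama1, a laminin chain of the parietal basement membrane, averaged 13.61 ± 0.02 in GFP positive and 13.62 ± 0.06 in GFP negative cells (SD, n = 3 each). Col4a1, a collagen IV chain, differed by -0.02 ± 0.08, and thrombomodulin, Thbd, by 0.15 ± 0.13. The called members were the keratin gene Krt19, higher by 1.41-fold, and the basement membrane linker gene Nid1, which read 7.80, 7.87 and 7.96 in GFP positive cells, against 8.29, 8.35 and 8.58 in GFP negative cells. The call of Nid1 was lost in each fit without a GFP positive array and without GFP negative replicate 2 or 3. That of Krt19 was lost after scale normalization (adjusted p = 0.138, limma).

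Among 23 measured basement membrane genes 2 were higher and 3 lower, where 3.07% and 2.32% of all genes were. Lamb3, a chain of the laminin of stratified epithelia, read 8.30, 8.37 and 8.39 in GFP positive cells, against 7.14, 7.36 and 7.38 in GFP negative cells, a 2.09-fold rise. Fibulin gene Fbln2 rose by 0.75 ± 0.09. The calcium-binding matrix protein gene Smoc1 (-0.54 ± 0.07), Nid1 and the collagen prolyl hydroxylase gene P4ha1 (-0.36 ± 0.09) were lower. The count of lower genes was 1 without GFP positive replicate 1 or 3 or without GFP negative replicate 2 or 3. Other matrix genes, chosen after their values were seen or by their size, were higher. Col5a1, a fibrillar collagen chain, rose by 1.25 ± 0.14, and Itgb4, an integrin that binds laminin in hemidesmosomes, by 0.99 ± 0.12. Pcolce, which enhances procollagen cleavage, rose by 1.36 ± 0.15, and Ccdc80, a secreted matrix-associated protein, was at least 2.38-fold higher.

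Of 21 measured mesenchymal and migration genes 5 were called higher (23.8%, against 3.07% of all genes) and none lower, with a median of 0.19. At an unadjusted p under 0.05 the counts were 10 higher and 1 lower (52.4% in either direction, against 18.6% of all genes). Lgals1, a galectin, read 10.11, 9.66 and 9.89 in GFP positive cells, against 8.74, 8.51 and 8.52 in GFP negative cells, a 2.46-fold rise. The calcium-binding protein gene S100a6 rose by 2.37-fold, and the smooth muscle actin gene Acta2, all 4 of whose probes were called, by 2.00-fold. Axl, a receptor tyrosine kinase, rose by 0.62 ± 0.11, and fibronectin, Fn1, by 0.51 ± 0.11. The call of Fn1 was lost under 5 of 16 alternatives, among them each fit without GFP positive replicate 1 or 2 or GFP negative replicate 2 or 3. Vimentin, Vim, differed by 0.22 ± 0.07 (adjusted p = 0.0811) and the repressor gene Snai1 by 0.14 ± 0.11 (adjusted p = 0.557). Of 21 measured epithelial junction and keratin genes only Krt19 was called, higher (4.76%, against 3.07% of all genes), and its call was lost after scale normalization. E-cadherin, Cdh1, differed by 0.15 ± 0.14. Among the largest rises of single genes were Krt20, a keratin of gut epithelium, at 1.38 ± 0.20, and Anxa1, a membrane-binding annexin, at least 2.14-fold higher. A second annexin gene, Anxa13 (0.96 ± 0.09), and a second galectin gene, Lgals3 (0.80 ± 0.13), were picked after their values were seen and were also higher.

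Imprinted growth genes moved in both directions. Cdkn1c, a maternally expressed inhibitor of the cell cycle, read 7.24, 7.37 and 7.45 in GFP positive cells, against 5.95, 6.12 and 6.06 in GFP negative cells, a 2.48-fold rise (adjusted p = 4.14e-05, limma). The noncoding RNA H19 rose by 1.44-fold, a call lost after scale normalization and without GFP positive replicate 1 or 2 or GFP negative replicate 1 (adjusted p up to 0.136). Phlda2, a maternally expressed gene that restrains placental growth, read 5.52, 5.65 and 5.61 in GFP positive cells, where no array detected it, and 6.70, 6.74 and 7.01 in GFP negative cells. It was at least 2.15-fold lower. In all, 10 imprinted genes were measured and these 3 were called, 20% higher and 10% lower, against 3.07% and 2.32% of all genes. Of 23 measured mitosis genes the spindle gene Tpx2 alone was called, lower at -0.31 ± 0.08 (4.35%, against 2.32% of all genes). Mki67 differed by -0.23 ± 0.13 (adjusted p = 0.405, limma). Of 23 S phase genes none was called. At an unadjusted p under 0.05, 3 of the 23 were lower and none was higher. That is a smaller share than the 18.6% of all genes that passed in either direction.

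Of 13 measured targets of BMP signalling 1 was called higher (7.69%, against 3.07% of all genes) and 3 lower (23.1%, against 2.32%), with a median of -0.13. Id1, a direct SMAD target, read 11.35, 11.31 and 11.28 in GFP positive cells, against 11.59, 11.51 and 11.57 in GFP negative cells, a difference of -0.24 ± 0.12 that did not pass (adjusted p = 0.299). Id3 differed by -0.18 ± 0.14. The called members were Bmper, a secreted BMP-binding protein, at least 1.41-fold lower, Id2 at -0.58 ± 0.11, Hey1 at -0.53 ± 0.14 and the iron hormone gene Hamp at 0.61 ± 0.15. Bmper read 5.31, 5.01 and 4.90 in GFP positive cells, none detected, against 6.13, 6.14 and 6.36 in GFP negative cells. Of the 3 probes of Id2, 1 was called. The call of Hamp was lost without GFP positive replicate 2 or 3 and without each GFP negative array, and that of Hey1 under 7 of 16 alternatives. None of 15 measured receptors, SMADs and antagonists was called. At an unadjusted p under 0.05, 2 were lower (13.3%, against 18.6% of all genes in either direction).

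Feedback genes of FGF and ERK signalling were lower where they were called. Of 10 measured 3 were lower (30%, against 2.32% of all genes) and none was higher, with a median of -0.25. The ETS factor gene Etv5 was lower at -0.75 ± 0.14 and was detected on 1 GFP positive and 3 GFP negative arrays. The ERK phosphatase gene Dusp4 was lower at -0.73 ± 0.18, and Dusp6 was called but detected on no sorted array. The call of Dusp4 was lost under 6 of 16 alternatives. Among WNT genes, 3 of 12 were higher (25%, against 3.07% of all genes) and none lower: the receptor genes Fzd5 (0.68 ± 0.09) and Fzd2 (0.53 ± 0.09) and the ligand gene Wnt4 (0.51 ± 0.10). The call of Wnt4 was lost after scale normalization.

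Of 6 measured pluripotent cell markers Klf2 was called higher, at 0.50 ± 0.11, and Lin28a lower, with a median of 0.09. That is 16.7% in each direction, against 3.07% and 2.32% of all genes. Lin28a, an RNA-binding protein that blocks let-7 maturation, read 8.50, 8.48 and 8.64 in GFP positive cells, against 9.06, 9.36 and 9.47 in GFP negative cells, a difference of -0.76 ± 0.10. Its 3 probes disagreed in size, the other two reading -0.26 and -0.22, and their mean did not pass (adjusted p = 0.0649). Picked after its values were seen, the DNA methyltransferase gene Dnmt3b read 9.70, 9.69 and 9.83 in GFP positive cells, against 10.59, 10.61 and 10.67 in GFP negative cells. Dnmt3b was lower by 1.84-fold (adjusted p = 4.14e-05, limma), and Tet1, an enzyme that oxidizes methylcytosine, by 1.56-fold. The call of Klf2 and that of Tet1 were each lost under 4 of 16 alternatives.

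The largest falls held genes of signalling and transport. Tnk1, a tyrosine kinase, read 4.87, 4.76 and 4.78 in GFP positive cells, none detected, against 6.45, 6.45 and 6.59 in GFP negative cells, and was at least 1.72-fold lower. The amino acid transporter gene Slc7a8 was at least 1.91-fold lower and the LIM protein gene Pdlim4 at least 1.57-fold. The adenosine receptor gene Adora2b, detected on 2 GFP positive arrays, differed by -1.54 ± 0.19. Rgl1, an exchange factor for Ral, was lower by 2.24-fold, and Rcan2, a calcineurin regulator, by 2.07-fold. Among the largest rises not yet named, the glutathione transferase gene Gsta3 rose by 1.31 ± 0.10 and the mucin-like gene Mucl3 by 1.32 ± 0.14. Acss1, a mitochondrial acetyl-CoA synthetase, was at least 1.38-fold higher and 4930486L24Rik at least 1.44-fold. Picked after their values were seen, Gstp2 and Mgst2, also glutathione transferases, both rose by 0.81.

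Genes of sterol synthesis and glycolysis were lower where called. Of 24 cholesterol synthesis genes 3 were lower (12.5%, against 2.32% of all genes), Idi1 (-0.70 ± 0.12), Dhcr7 (-0.37 ± 0.07) and Cyp51 (-0.37 ± 0.09), none was higher, and the median was -0.15. After scale normalization 1 of the 24 was lower, and the call of Cyp51 was lost under 8 of 16 alternatives, among them each fit without GFP positive replicate 1 or 3 or GFP negative replicate 2 or 3. Of 22 glycolysis and hypoxia genes Aldoc (-0.60 ± 0.08), P4ha1 and Hk2 (-0.33 ± 0.07) were lower (13.6%, against 2.32% of all genes). The count was 1 after scale normalization and without GFP positive replicate 1 or GFP negative replicate 2, and the calls of P4ha1 and Hk2 were lost under 6 and 5 alternatives. Of 22 targets of ATF4 and the amino acid response Vldlr and Cebpb were higher, and Chac1 (-0.57 ± 0.10) and Slc7a5 (-0.42 ± 0.10) lower. That is 9.09% in each direction, against 3.07% higher and 2.32% lower of all genes. The call of Cebpb was lost without any 1 of the 6 sorted arrays. That of Slc7a5 was lost under 7 of 16 alternatives, among them the replicate block and each fit without GFP positive replicate 1 or 2 or GFP negative replicate 2 or 3. Nupr1 was detected on no sorted array. Of 17 YAP and TEAD targets Axl, Fjx1 and Crim1 were higher (17.6%, against 3.07% of all genes) and Nuak2 lower (5.88%, against 2.32%). The counts were 1 higher and 0 lower after scale normalization, with the replicate block, and without GFP positive replicate 1 or GFP negative replicate 2, and 1 higher and 1 lower without GFP positive replicate 3 or GFP negative replicate 1. The probes of Crim1 and of Fjx1 disagreed, with 1 of 2 called for each. Ifitm1, whose call was lost under 4 alternatives, was the 1 higher gene among 9 interferon genes (11.1%, against 3.07% of all genes). The angiopoietin receptor gene Tek was the 1 higher gene among 7 of the VEGF and angiopoietin list (14.3%).

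Genes that respond to dissociation and handling were also measured. Of 20 immediate early genes Socs3, Klf2 and Dusp1 were called higher, by 0.54, 0.50 and 0.45 (15%, against 3.07% of all genes). Egr1, Sgk1 and Dusp6 were called lower (15%, against 2.32%). The count of higher genes was 0 after scale normalization and 1 without GFP positive replicate 1 or 3, with 3 lower in each. Egr1 read 7.71, 7.32 and 7.77 in GFP positive cells, against 8.67, 8.42 and 8.95 in GFP negative cells, and was 2.11-fold lower. Their part in the other results was not tested. The ribosomal protein and respiratory chain lists lay close to 0. At their brightest probes the 27 ribosomal protein genes ranged between -0.09 and 0.10, with none called. The 21 respiratory chain genes ranged between -0.15 and 0.18, also with none called. At an unadjusted p under 0.05 the lists held 0 and 1. A dimmer probe of the cytochrome c gene Cycs was called lower, at -0.56. None of 19 heat shock, 21 p53 or 9 hedgehog genes was called at its brightest probe. They ranged between -0.36 and 0.43, -0.42 and 0.39, and -0.33 and 0.37. At an unadjusted p under 0.05 there were 4 (21.1%), 3 (14.3%) and 3 (33.3%), against 18.6% of all genes tested.

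**Figure D4:**
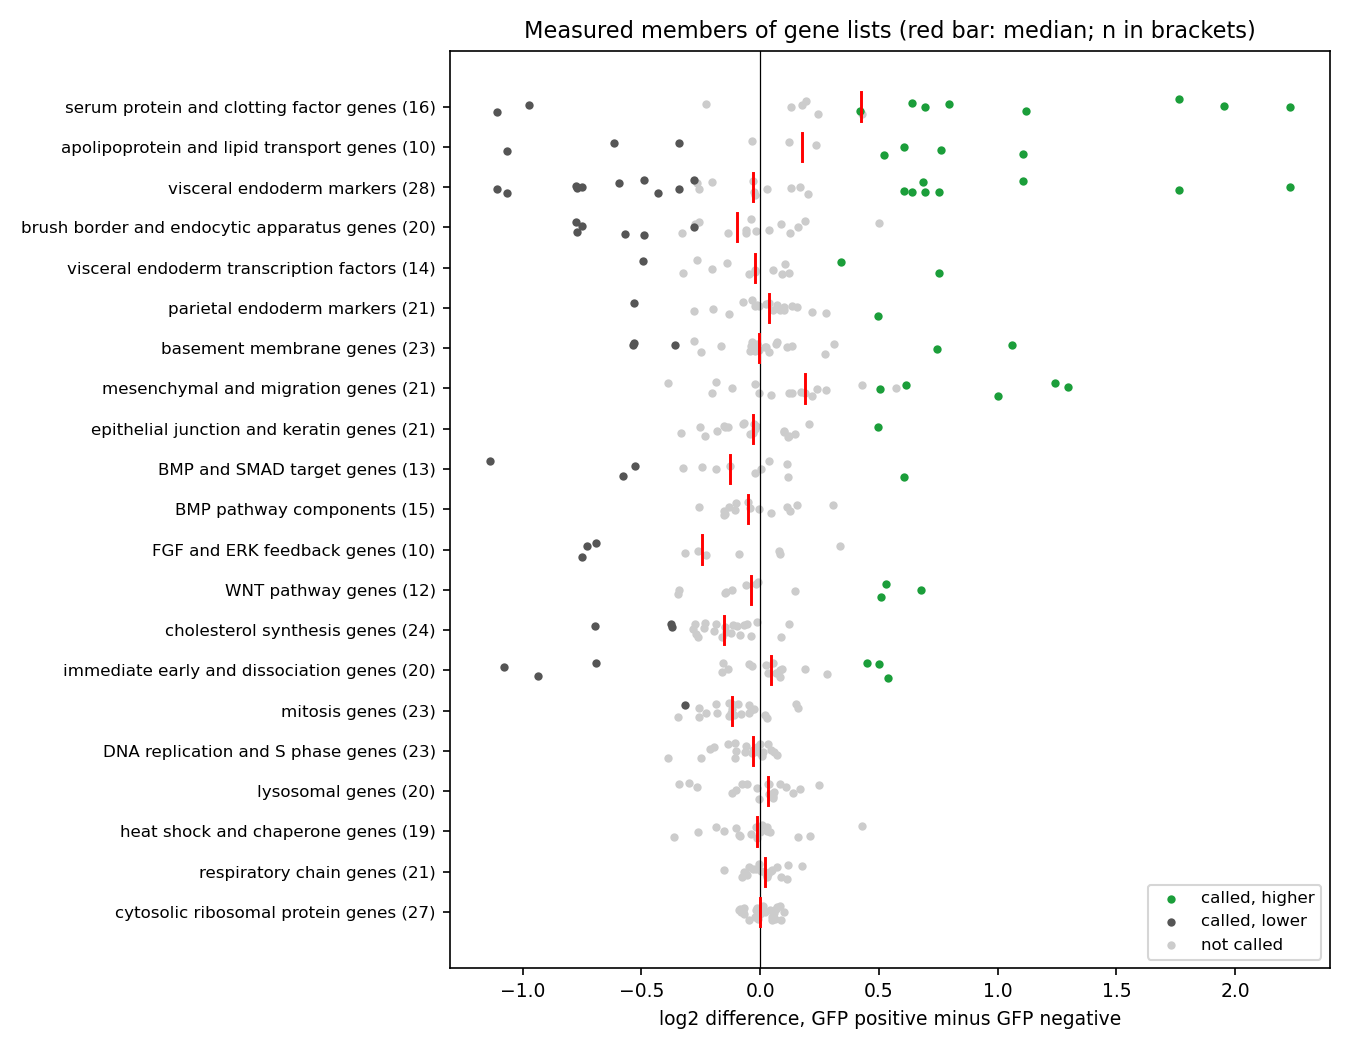
Log2 difference (GFP positive minus GFP negative) of each measured member of 21 gene lists, 1 point per gene with the number measured in brackets; green points were called higher, dark grey points lower and light grey points were not called, and red bars are medians. Serum protein genes reach 2.23, the value of the sort marker Afp, with a median of 0.42. Visceral endoderm markers spread to both sides, and ribosomal protein genes stay between -0.09 and 0.10.

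Markers of other cell types were few. Of 15 pluripotent cell markers 6 were measured, and their summed signal was 2258 to 2338 in GFP positive and 2580 to 2856 in GFP negative cells. Dppa5a was detected on no sorted array. The 5 measured mesoderm, blood and endothelial markers, of 18, summed to 6149 to 7116 in GFP positive and 5219 to 5413 in GFP negative cells. Tek was the 1 called gene, higher (20%, against 3.07% of all genes). The 5 gut endoderm markers, of 13, summed to 5185 to 5217 in GFP positive and 5681 to 5813 in GFP negative cells with none called, and the 4 trophoblast markers, of 14, to 2627 to 2750 in GFP positive and 2746 to 2862 in GFP negative cells, also with none called. Cdx2 was detected on no sorted array. For 11 fibroblast and 11 neural markers only Twist1 and Mapt were measured, and neither was called. Mapt passed an unadjusted p under 0.05. The part of these markers in the results was not tested.

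The unsorted arrays, which share no array with the fractions, show how the genes called between the fractions differed with BMP4 in unsorted cells. Of the 325 genes higher in GFP positive cells, 124 (38.2%) rose with BMP4 over untreated cells and 137 (42.2%) fell. Of the 246 lower genes, 92 (37.4%) rose and 91 (37.0%) fell. Among all genes tested 30.2% rose and 28.7% fell with BMP4, so both directions were common in both classes. Of the 27 genes at least 2-fold higher, 17 rose with BMP4 and 6 fell, and of the 13 at least 2-fold lower 8 rose and 3 fell.

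Genes that were higher with BMP4 in unsorted cells thus stood on both sides of the sort. Spp2 rose by 1.29 with BMP4, Trf by 1.91, Cdkn1c by 4.37, Serpina10 by 4.95 and Lgals1 by 2.47, and all were higher in GFP positive cells. Amn rose by 6.03 with BMP4, Spink1 by 3.68, Apom by 3.25, Tnk1 by 3.15, Lrp2 by 3.09 and Phlda2 by 2.78, and all were lower in GFP positive cells. Among genes that fell with BMP4, Acss1 (-3.77) and Igfbp5 (-3.71) were higher in GFP positive cells, whereas Bmper (-2.42), Rgl1 (-1.57) and Slc24a3 (-1.84), a sodium-calcium exchanger gene picked after its value was seen, were lower.

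**Figure D5:**
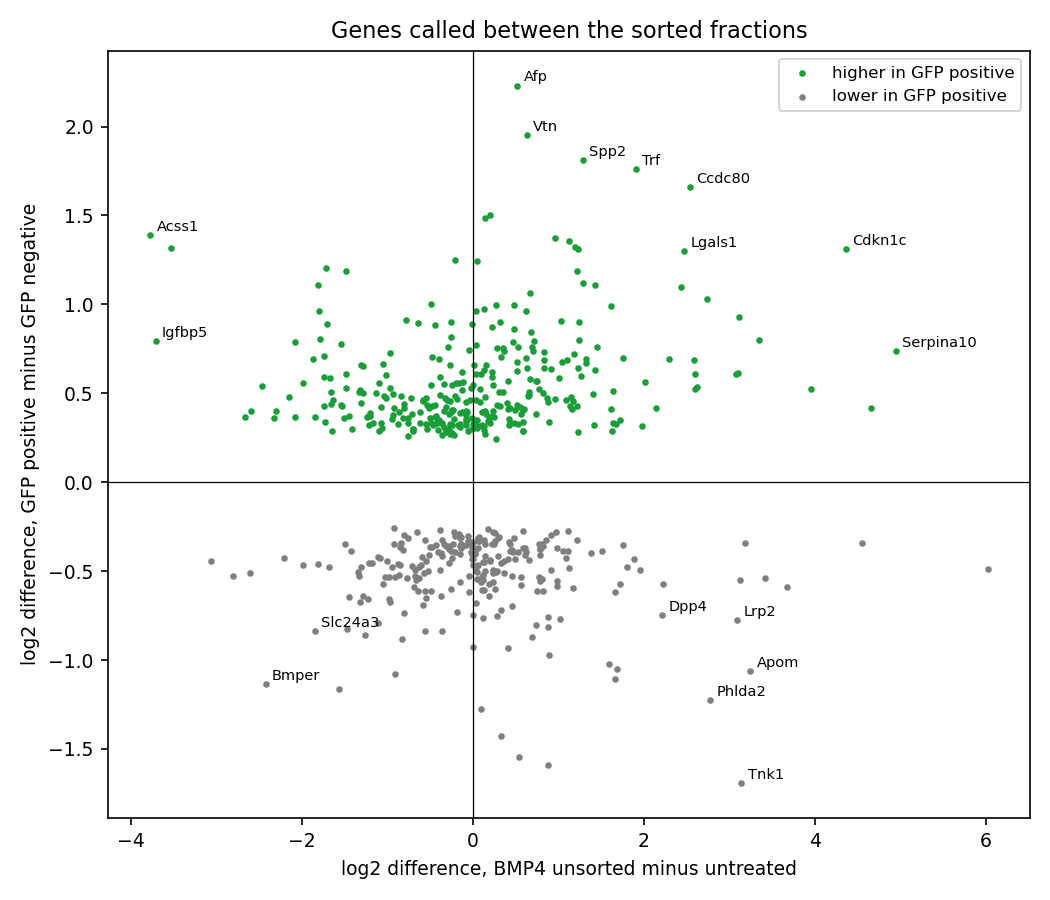
The 571 genes called between the fractions, with the log2 difference of unsorted BMP4-treated minus untreated cells on the x axis and of GFP positive minus GFP negative cells on the y axis, 1 point per gene. Points fill all 4 quadrants: Cdkn1c and Serpina10 lie at the upper right, Apom, Lrp2 and Tnk1 at the lower right, Acss1 and Igfbp5 at the upper left, and Bmper at the lower left.

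Levels in unsorted BMP4-treated cells did not lie between the fractions for most called genes. Their mean lay between the 2 fraction means for 139 of 571 genes (24.3%), above both for 201 (35.2%) and below both for 231 (40.5%). Afp averaged 9.58 ± 0.17 in GFP positive cells and 7.35 ± 0.13 in GFP negative cells, against 6.02 in unsorted BMP4-treated and 5.50 in untreated cells. Among others, Foxa1, F10, Proc, Fbln2 and Col5a1 were detected on all 6 sorted arrays and on no unsorted array. Conversely Phlda2 averaged 7.48 and Bmper 8.78 in unsorted BMP4-treated cells, above both fractions. Median signal was 22.6 to 32.4 on sorted and 53.4 to 60.9 on unsorted arrays, and sorting, culture and array handling cannot be told apart in this difference.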

How the data were processed

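RNA of 12 samples was hybridized to Illumina MouseWG-6 V2 arrays. The deposited table holds the mean bead signal of each probe as an intensity and a detection value, a fraction equal to 1 minus the detection p; it was exported from BeadStudio 3.4.0 without normalization, per the file headers. The authors' processed table of log2 values names lumi, per the submitters' processing notes, and its identifiers were not linked to genes, so it served only to count probes. The slide of each array was not given in the sources used here.

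In limma 3.58.1 (R 4.3.3) the background was removed with a normexp model based on the detection p, and the signals then received an offset of 16, quantile normalization over the 12 arrays and a log2 transform. A probe entered the test if its detection p was under 0.01 on 3 or more arrays (15448 of 45281), and the brightest such probe stood for its gene. Of the file's symbols 13430 were current, 8112 matched 1 synonym and 9948 stayed unmatched. Where a gene has several probes, 1 gene had probes called in both directions. No array was identical to another. A model of 4 group means was fitted (8 residual degrees of freedom), with Benjamini-Hochberg adjustment over 10597 genes. Where no array of a fraction detected a gene, the level of the dimmest detected probe of each array took the place of any value under it, and the fold is a bound. The offset makes folds of dim genes smaller.

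The 12 largest rises and falls came from called genes with current names and no overlap, detected on every array of the higher fraction. Named genes are Afp, these rises and falls, up to 4 called members of each of 37 lists, and a set of 30 further genes. Any gene said to be picked after its values were seen lies outside this rule, as do further members named from lists. Not every gene named by the rule is reported here. The members and lists were chosen with earlier results of these data known, so their counts are descriptions and not independent evidence. Alternatives covered background correction, offset, normalization, filters, probe choice, which arrays were fitted, weights for arrays, the replicate block, thresholds and leaving out each array. The fit was tested on simulated data.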

Additional observations from a re-analysis of the deposited data

How the results depend on the processing

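The main count of 571 genes called between the fractions was 233 with scale normalization, 918 with array weights, 240 at an adjusted p under 0.01 and 40 with a 2-fold minimum, and ranged between 289 and 445 when 1 sorted array at a time was left out. Under the other alternatives it was 420 (no detection filter) to 749 (the 6 sorted arrays normalized, filtered and fitted alone), and 537 of 9278 genes detected on all 3 arrays of a fraction, a count added after the data were seen. The cause of these shifts was not tested. No gene was called in the opposite direction under any setting. The count of probes was 683 of 15448 here and 853 in the processed table. The replicate block was fitted to the sorted and the unsorted arrays separately. It gave 463 genes between the fractions, 390 of them shared with the main fit, against 640 from the sorted arrays fitted without the block. For BMP4 against untreated cells it gave 5496. Deviations of same-numbered arrays correlated at 0.152, 0.127 and -0.01, so the numbers were not taken to pair the samples, and 1 GFP positive array of 3 did not correlate best with its own number.

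Of 126 named genes 105 were called. Of these 72 kept the call under each of the 16 alternatives at the same threshold that tested them. Another 33 lost it under at least 1, and none changed sign. A gene that a detection filter removed, such as Dusp6, was not tested under that filter and lost no call there. Leaving out an array cost 24 calls for GFP positive replicate 1, 18 for replicate 2 and 13 for replicate 3, against 10, 23 and 18 for GFP negative replicates 1, 2 and 3. The calls lost under 5 or more alternatives were those of Fjx1, Cebpb, Dab2, Tpx2, Apoe, Crim1, Cyp51, Hey1, Nid1, Slc7a5, Dusp4, Fga, Hamp, Mgst2, Nuak2, P4ha1, Soat2, Fn1 and Hk2. Tek, Socs3, Krt19, Wnt4 and Dhcr7 each lost the call under 1 alternative, scale normalization. Hnf4a, Gata4 and Id1 passed when the sorted arrays were normalized and fitted alone, and Vim with array weights.

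Differences near 0 changed sign in 8 genes that were not called. Cdx2 was 0.00097 without background correction, Pdgfra 0.0063 with array weights and Snai1 -0.073 as the mean of its probes. With single arrays left out, the differences ranged between -0.21 and 0.11 for Cdx2, -0.061 and 0.0036 for Col4a1, -0.073 and 0.034 for Foxa2, and -0.033 and 0.024 for Lama1. They ranged between -0.016 and 0.25 for Nupr1, -0.044 and 0.037 for Pdgfra, and -0.085 and 0.044 for Sparc. The number of arrays, 3 per fraction, and probes near background limit the precision: 674 of the genes tested were detected on no sorted array, and for genes that 1 fraction did not detect a fold is only a bound.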
